A study of Mus musculus with 24 samples.

Results

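The Snrpn-Ube3a domain is an imprinted gene cluster on central chromosome 7 of the mouse that corresponds to the Prader-Willi and Angelman syndrome region of human chromosome 15. Its 9 members examined here were chosen by gene symbol, and all 9 were found among the 34745 genes of the expression table. They are *Snrpn*, *Snurf*, *Ndn*, *Magel2*, *Mkrn3* and *Peg12*, which code for proteins and are expressed from the paternal allele, the noncoding host transcript *Snhg14*, and *Ube3a* and *Atp10a*, which are expressed mainly from the maternal allele in some tissues. RNA-seq libraries of 12 whole embryos of the 129/DBA hybrid background at embryonic day 13.5 were compared, with 1 library per embryo. In the 6 M-Z+ embryos, genotype Zfp57-/+, maternal *Zfp57* is absent and the embryo carries a functional allele from its father. In the 6 M-Z- embryos, genotype Zfp57-/-, both maternal and zygotic *Zfp57* are absent. The mothers of both groups were homozygous mutants on a 129 background and the fathers were heterozygotes mainly on DBA/2J, so no library of an embryo with maternal ZFP57 enters the comparison. Sex and litter are not given in the labels of these embryos.

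ZFP57 is a KRAB zinc finger protein that binds a methylated TGCCGC hexamer at imprinting control regions and keeps their DNA methylation through early development. The control region of this domain lies at the start of *Snrpn* and carries methylation on the maternal chromosome. The paternally expressed genes are transcribed from the chromosome without that methylation. In neurons the long *Snhg14* transcript runs through *Ube3a* in the antisense direction, and *Ube3a* is then expressed from the maternal chromosome, whereas most other tissues use both *Ube3a* alleles. Setting M-Z- against M-Z+ embryos asks what zygotic ZFP57 adds at these genes when maternal ZFP57 is already missing.

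In the deposited positions (mm10, chromosome 7), the stretch opens with *Atp10a* (58658202 to 58829426) and *Ube3a* (59228750 to 59311536). *Snhg14* (59307924 to 59975759) overlaps the end of *Ube3a*. *Snrpn* (59982495 to 60140219) encloses *Snurf* (59995449 to 60005049). A wide interval then separates them from *Ndn* (62348277 to 62349928), *Magel2* (62376979 to 62381640), *Mkrn3* (62417593 to 62420139) and *Peg12* (62461871 to 62464510), which lie close together.

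The promoters of *Snrpn* and *Ndn* are shown because these genes varied together across the embryos, and that of *Peg12* because its groups did not overlap. Each is a RefSeq window of the GRCm38.p6 build on chromosome 7, from 250 bases before to 50 bases after the annotated start, printed 5′ to 3′ on the strand of the gene. Capitals mark TGCCGC or its reverse complement GCGGCA, and GCATGCG or its reverse complement CGCATGC.
Snrpn/Snurf, minus strand, chr7:60005150-60005449: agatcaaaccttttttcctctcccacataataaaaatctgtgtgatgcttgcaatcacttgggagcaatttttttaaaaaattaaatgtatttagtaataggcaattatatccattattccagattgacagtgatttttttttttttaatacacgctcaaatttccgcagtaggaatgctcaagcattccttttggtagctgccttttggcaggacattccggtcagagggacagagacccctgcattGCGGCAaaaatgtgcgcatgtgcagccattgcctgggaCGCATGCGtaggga
Ndn, plus strand, chr7:62348027-62348326: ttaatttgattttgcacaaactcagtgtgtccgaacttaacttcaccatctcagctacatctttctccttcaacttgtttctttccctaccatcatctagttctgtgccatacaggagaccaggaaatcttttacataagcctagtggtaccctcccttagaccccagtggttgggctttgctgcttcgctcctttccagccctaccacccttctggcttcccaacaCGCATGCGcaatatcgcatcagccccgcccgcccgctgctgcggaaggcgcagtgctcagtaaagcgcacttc
Peg12, minus strand, chr7:62464461-62464760: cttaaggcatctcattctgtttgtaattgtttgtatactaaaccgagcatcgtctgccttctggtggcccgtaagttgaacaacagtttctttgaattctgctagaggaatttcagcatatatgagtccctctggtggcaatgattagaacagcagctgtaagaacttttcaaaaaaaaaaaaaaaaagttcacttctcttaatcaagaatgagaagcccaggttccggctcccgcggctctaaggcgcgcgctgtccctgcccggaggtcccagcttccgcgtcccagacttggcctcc

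RefSeq gave promoter windows for all 9 members, 10 windows in all, since *Snrpn* has 4 annotated starts. The most upstream of these starts is shared with *Snhg14* and the most downstream with *Snurf*. On either strand, the hexamer TGCCGC was found in 1 of the 10 windows, that of *Snrpn* and *Snurf*, and in 11.6% of 32817 mouse promoter windows of the same length. The heptamer GCATGCG was chosen after the sequences were seen. It was found in 5 windows, the 4 of *Snrpn* and that of *Ndn*, and in 3.57% of all windows. Since it was picked from these same windows, this comparison is a description and not a test. The matches of the heptamer on the opposite strands overlap in a palindrome. The windows of *Magel2*, *Mkrn3*, *Peg12*, *Ube3a* and *Atp10a* held neither run of letters. The 3 upstream *Snrpn* windows were 79.7% to 81.1% identical to each other, and 40.9% to 46.4% identical to the window shared with *Snurf*. They held 2 to 4 CpG dinucleotides and the *Snurf* window held 7, which was also the median of all windows. The count was 10 to 15 for *Ndn*, *Magel2*, *Mkrn3* and *Peg12*, 20 for *Atp10a* and 29 for *Ube3a*.

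The libraries held 12347383 to 19216288 gene counts in M-Z+ and 12005145 to 14617373 in M-Z- embryos. *Zfp57* itself had a lowest, median and highest level of 19.1, 23.7 and 40.8 CPM (counts scaled to the library size) in M-Z+ and of 17.8, 26.5 and 27.8 in M-Z- embryos. This count covers the whole gene, and the deleted part is not given in the sources used here, so it does not check the genotypes. The libraries also differed in how the level depended on gene length. The slope of log2 CPM against the log2 length of the gene was 0.66 to 0.67 in 3 libraries, M-Z+ replicate 6 and M-Z- replicates 5 and 6, and 0.44 to 0.57 in the other 9. Results for the domain are therefore given also with this slope as a covariate and without the 3 libraries. Markers of neurons, hepatocytes, erythroid cells and skeletal muscle were detected in the libraries, whose label is whole embryo. In such bulk samples, fewer cells of a type and less RNA per cell cannot be told apart.

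The 9 members spanned a wide range of expression. Per length, on the scale of TPM (counts per length, scaled to the same sum in each library), *Ndn* had the highest level, 794 ± 144 in M-Z+ and 931 ± 64.2 in M-Z- embryos (SD, n = 6). *Ndn* encodes necdin, a MAGE family protein of postmitotic neurons. Next was *Snrpn*, which encodes the spliceosomal protein SmN, at 169 ± 34.6 and 193 ± 15.4 TPM, and its range over the 12 embryos overlapped neither that of *Ndn* nor that of *Peg12*. *Peg12*, a relative of the GSK3-binding FRAT proteins, had 51.3 ± 6.90 and 67.8 ± 8.25 TPM. It was followed by *Magel2*, a MAGE protein that works with the ubiquitin ligase TRIM27 in endosomal protein sorting, with 31.3 ± 5.84 and 37.5 ± 10.9 TPM. *Mkrn3*, a makorin RING finger protein linked to the timing of puberty, had 21.8 ± 2.92 and 29.2 ± 4.46 TPM. The ranges of *Peg12* and *Magel2* overlapped, as did those of *Magel2* and *Mkrn3*, but in each of the 12 embryos *Peg12* was above *Magel2* and *Magel2* was above *Mkrn3*.

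The ranges of the last 3 tested members in the order overlapped one another. *Ube3a*, a ubiquitin ligase, had 7.04 ± 4.69 TPM in M-Z+ and 11.96 ± 5.18 TPM in M-Z- embryos. *Snhg14* had 5.81 ± 1.95 and 7.77 ± 3.52 TPM, and *Atp10a*, a phospholipid flippase, had 5.34 ± 1.08 and 6.54 ± 0.71 TPM. *Ube3a* was above *Snhg14* in 10 of the 12 embryos and *Snhg14* was above *Atp10a* in 7. *Snurf*, which encodes a small protein at the 5′ end of the *Snrpn* transcript, had 1 count in 11 libraries and 2 counts in 1 library. Its annotated locus lies inside that of *Snrpn*, and it did not pass the filter on low counts. Its level is not interpreted, since it was 1 of 11 genes of the table that held 1 count in at least 11 libraries.

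**Figure D1:**
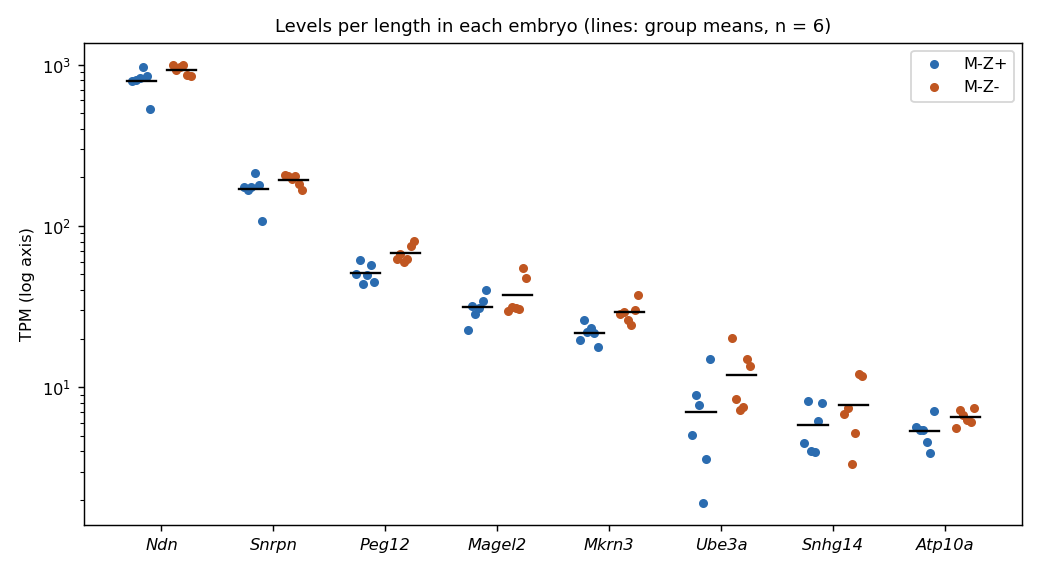
Expression per length of the 8 members that passed the filter on low counts, as TPM on a log axis, with 1 point per embryo (blue, M-Z+; orange, M-Z-) and a line at each group mean (n = 6). *Ndn* and *Snrpn* stand above the other genes in all embryos, whereas *Ube3a*, *Snhg14* and *Atp10a* overlap.

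No member was called changed between M-Z- and M-Z+ embryos, where a call in edgeR needed a log2 fold change past 0.5 and an adjusted p under 0.05. Of all 16026 tested genes, 13 were called, which is 0.0811%, and no member was called by DESeq2 either, where the lowest adjusted p was 0.190 for *Peg12*. All 8 tested members had a log2 fold change above 0, that is, a higher level in M-Z- embryos, against 48.3% of all tested genes. At an unadjusted p below 0.05, 3 of the 8 were higher (*Mkrn3*, *Peg12* and *Atp10a*) and none was lower, whereas 3.44% of all tested genes were higher at that p. The median log2 fold change was 0.31 over the 8 members and −0.0072 over all tested genes. The members are neighbours that share a control region, so they are not 8 independent observations.

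*Snrpn* had a lowest, median and highest level of 83.0, 148 and 193 CPM in M-Z+ and of 131, 166 and 172 CPM in M-Z- embryos. The M-Z- embryos lay within the range of the M-Z+ embryos, which ran from the lowest to the highest value of the series. Its log2 fold change was 0.14 (95% interval −0.19 to 0.47, edgeR adjusted p = 0.804), and it was 0.014 without M-Z+ replicate 6 and 0.24 without M-Z+ replicate 4. *Ndn* had 230, 385 and 493 CPM in M-Z+ and 374, 443 and 477 CPM in M-Z- embryos. Its M-Z- embryos also lay within the M-Z+ range, with a log2 fold change of 0.19 (95% interval −0.12 to 0.49, edgeR adjusted p = 0.759). In both genes M-Z+ replicate 6 was the lowest of all 12 embryos and M-Z+ replicate 4 the highest.

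*Mkrn3* had 11.9, 16.2 and 18.3 CPM in M-Z+ and 17.8, 20.5 and 25.2 CPM in M-Z- embryos. Here 5 of the 6 M-Z- embryos were above every M-Z+ embryo. The log2 fold change was 0.38 (standard error 0.12, 95% interval 0.13 to 0.64, exact permutation p = 0.0065), but it did not pass after adjustment (edgeR adjusted p = 0.664). *Peg12* had 31.3, 39.8 and 44.8 CPM in M-Z+ and 45.0, 49.0 and 56.6 CPM in M-Z- embryos. All 6 M-Z- embryos were above all 6 M-Z+ embryos, though the highest M-Z+ and the lowest M-Z- embryo were close. The exact two-sided permutation p of *Peg12* was 0.0022, the smallest that the 924 divisions of the embryos can give. The M-Z- embryos stood above all M-Z+ embryos in 48 of the tested genes, or 0.3%. The log2 fold change of *Peg12* was 0.36 (standard error 0.10, 95% interval 0.14 to 0.58), below the limit of 0.5 and not past the adjusted threshold (edgeR adjusted p = 0.589).

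*Magel2* had 30.7, 42.3 and 49.0 CPM in M-Z+ and 38.8, 41.4 and 68.8 CPM in M-Z- embryos. Only M-Z- replicates 5 and 6 exceeded the M-Z+ range, and the other 4 lay between 38.8 and 41.4 CPM. *Magel2* had a log2 fold change of 0.22 (95% interval −0.12 to 0.56, edgeR adjusted p = 0.756). The same 2 embryos stood apart in *Snhg14*, which had 32.0, 44.1 and 62.8 CPM in M-Z+ and 26.5, 56.4 and 91.0 CPM in M-Z- embryos. The lowest of all 12 embryos was also a M-Z- embryo, and the log2 fold change was 0.38 (95% interval −0.20 to 0.97, edgeR adjusted p = 0.756). Both embryos are among the 3 libraries with the steepest length slope.

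*Ube3a* had the largest difference and the least certain one. It had 16.8, 52.5 and 113 CPM in M-Z+ and 58.9, 85.4 and 163 CPM in M-Z- embryos. All 6 M-Z- embryos were above the M-Z+ median, but the groups overlapped, and only 2 M-Z- embryos exceeded the highest M-Z+ embryo, which was replicate 6. The fitted log2 fold change of *Ube3a* was 0.76 (standard error 0.39, 95% interval −0.07 to 1.60, edgeR adjusted p = 0.749). The levels of *Ube3a* differed 6.72-fold among the M-Z+ embryos and 2.76-fold among the M-Z- embryos. The standard deviation of its log2 CPM within groups was 0.80, higher than in 97.4% of the tested genes, and that of *Snhg14* was 0.56, higher than in 91.6%. For *Peg12*, *Atp10a* and *Mkrn3* it was 0.18, 0.20 and 0.20, below the median of 0.23. *Snhg14* overlaps *Ube3a* on the opposite strand, and whether the counting used strand is not given in the sources used here, so reads within the overlap cannot be assigned to one of them.

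*Atp10a* had 6.29, 8.27 and 10.2 CPM in M-Z+ and 8.56, 10.1 and 11.3 CPM in M-Z- embryos. In *Atp10a* 3 of the 6 M-Z- embryos were above every M-Z+ embryo. Its log2 fold change was 0.27 (standard error 0.12, 95% interval 0.00089 to 0.53, edgeR adjusted p = 0.746), with an exact permutation p of 0.032. The gene had 96 to 196 counts per library, the fewest of the tested members.

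**Figure D2:**
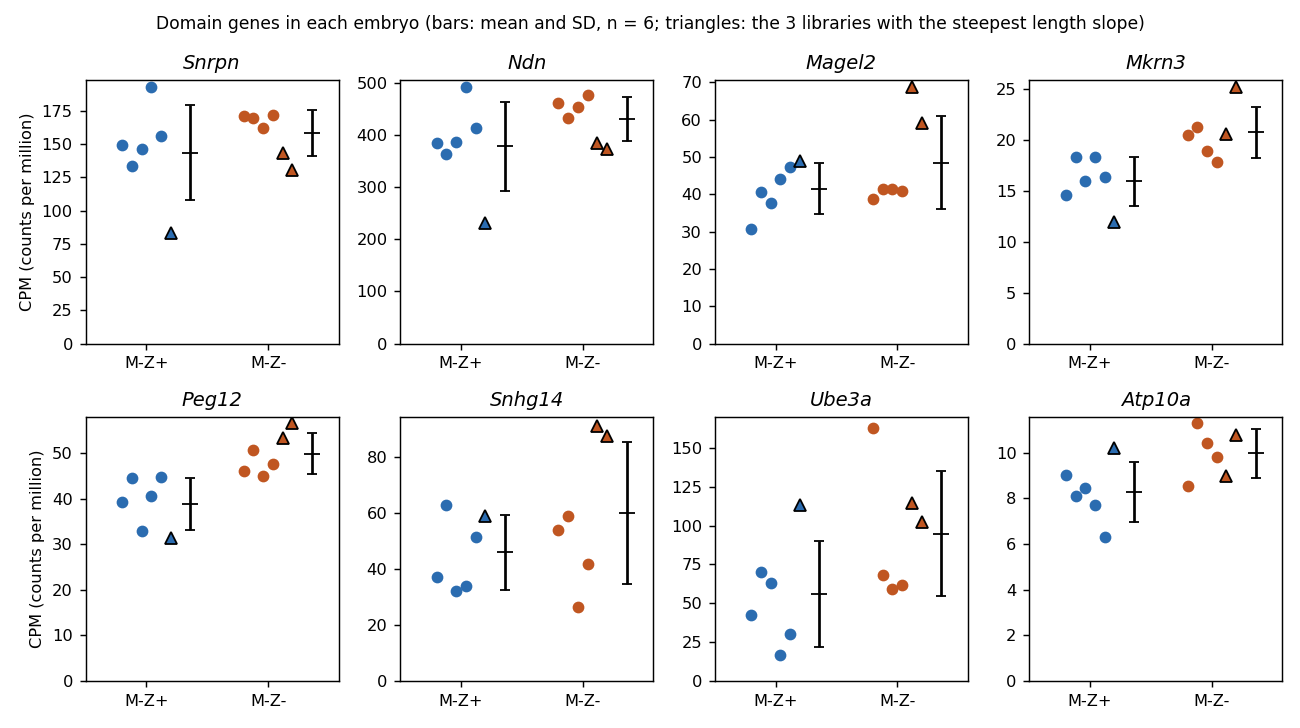
Levels of the 8 tested members in CPM, with 1 point per embryo in order of replicate number (blue, M-Z+; orange, M-Z-) and the mean and SD of each group beside the points (n = 6). Triangles mark the 3 libraries with the steepest length slope, and the groups are separate only in *Peg12*.

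The length slope of the libraries moved with several members. *Snrpn* had 83.0 CPM in M-Z+ replicate 6 and 134 to 193 CPM in M-Z+ replicates 1 to 5, and it had 131 to 144 CPM in M-Z- replicates 5 and 6 against 163 to 172 CPM in the other 4. *Ndn* was likewise lower in the steep library or libraries of each group. *Magel2* and *Snhg14* went the other way in M-Z- embryos, with 59.1 to 68.8 CPM against 38.8 to 41.4 CPM for *Magel2*, and with 87.5 to 91.0 CPM against 26.5 to 59.0 CPM for *Snhg14*. With the slope as a covariate, the log2 fold change was 0.39 for *Snrpn* (edgeR adjusted p = 0.0397, 95% interval 0.24 to 0.54) and 0.40 for *Ndn* (edgeR adjusted p = 0.0172, 95% interval 0.27 to 0.54). Both passed the adjusted p but stayed below the fold change limit, in a fit where 0.125% of the tested genes passed that p with a higher level in M-Z- embryos. Those of *Magel2* and *Snhg14* were then 0.06 and 0.04, those of *Mkrn3* and *Peg12* were 0.41 and 0.37, and that of *Ube3a* was 0.55 (edgeR adjusted p = 0.546).

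These values depended on single embryos. With the covariate and each embryo left out in turn, *Ndn* passed the adjusted p in 9 of 12 fits and *Snrpn* in 3. Without M-Z+ replicate 6, the log2 fold changes fell to 0.28 for *Ndn* (edgeR adjusted p = 0.215) and to 0.26 for *Snrpn* (edgeR adjusted p = 0.341). Those of *Mkrn3* and *Peg12* were 0.20 and 0.18 without the same embryo, and that of *Ube3a* was 0.13 without M-Z- replicate 1. When the 3 steep libraries were left out and no covariate was used, the values were 0.15 for *Ndn*, 0.11 for *Snrpn*, 0.22 for *Mkrn3* and 0.22 for *Peg12*, and the intervals of all 4 included 0. Those of *Ube3a* and *Atp10a* were then 0.98 (95% interval 0.12 to 1.85) and 0.34 (95% interval 0.04 to 0.63), and neither passed after adjustment (edgeR adjusted p = 0.637 for both). The part of the length slope in these differences was not tested beyond these fits.

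**Figure D3:**
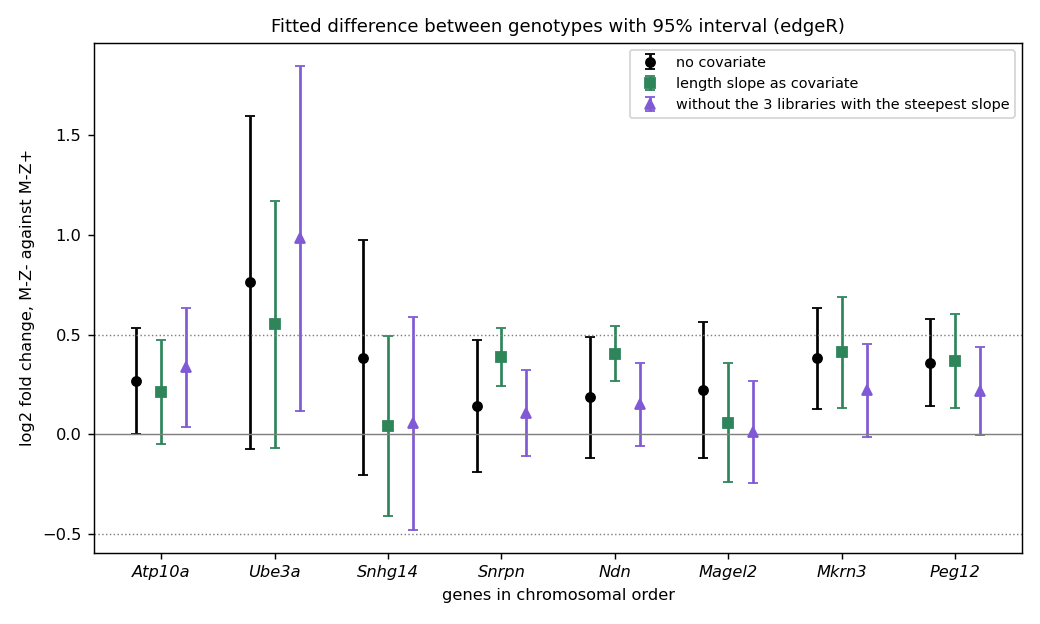
The log2 fold change of each tested member, M-Z- against M-Z+, with its 95% interval, in chromosomal order. Circles show the fit without a covariate, squares the fit with the length slope, and triangles the fit without the 3 steepest libraries. Dotted lines mark the limit of 0.5. The intervals are widest for *Ube3a*, and those of *Snrpn* and *Ndn* clear 0 only with the covariate.

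*Snrpn* and *Ndn* varied together from embryo to embryo. Their deviations from the group means, in log2 CPM over the 12 embryos, had a Pearson r of 0.99 and a Spearman rho of 0.93 (permutation p = 7e-05 and 0.00041 within groups, adjusted over 7 members p = 0.00049 and 0.0029). The r was 0.94 without M-Z+ replicates 4 and 6, the embryos farthest from the median, and 0.95 without the 3 steep libraries. The latter subset kept M-Z+ replicate 4, which had the lowest length slope, 0.44. An r this high with *Snrpn* was not particular to *Ndn*, since genes outside the domain given below reached 0.97 to 0.98. The ratio of *Ndn* to *Snrpn* in TPM stayed between 4.52 and 5.07 in all 12 embryos, whereas that of *Snrpn* to *Peg12* ran from 2.08 to 4.28. The deviations of *Snrpn* and *Ube3a* were opposite, with an r of −0.77 and a rho of −0.65 (permutation p = 0.014 and 0.041, adjusted over 7 members p = 0.0502 and 0.144). Neither passed 0.05 after this adjustment. Adjusted over the 7 members compared with *Ube3a* instead, the permutation p of the same r was 0.0472, so it lay at the threshold. That of *Ube3a* with *Ndn* (r of −0.77) was also 0.0472. Without M-Z+ replicates 4 and 6, the r of *Ube3a* was −0.42 with *Snrpn* (permutation p = 0.272) and −0.45 with *Ndn* (permutation p = 0.226). Neither relation held without these embryos. The r of *Snrpn* and *Ube3a* was −0.73 without the 3 steep libraries (permutation p = 0.028, 9 embryos). For *Magel2*, *Mkrn3*, *Peg12*, *Snhg14* and *Atp10a* the r with *Snrpn* lay between −0.55 and 0.45, and none passed 0.05 after adjustment either.

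**Figure D4:**
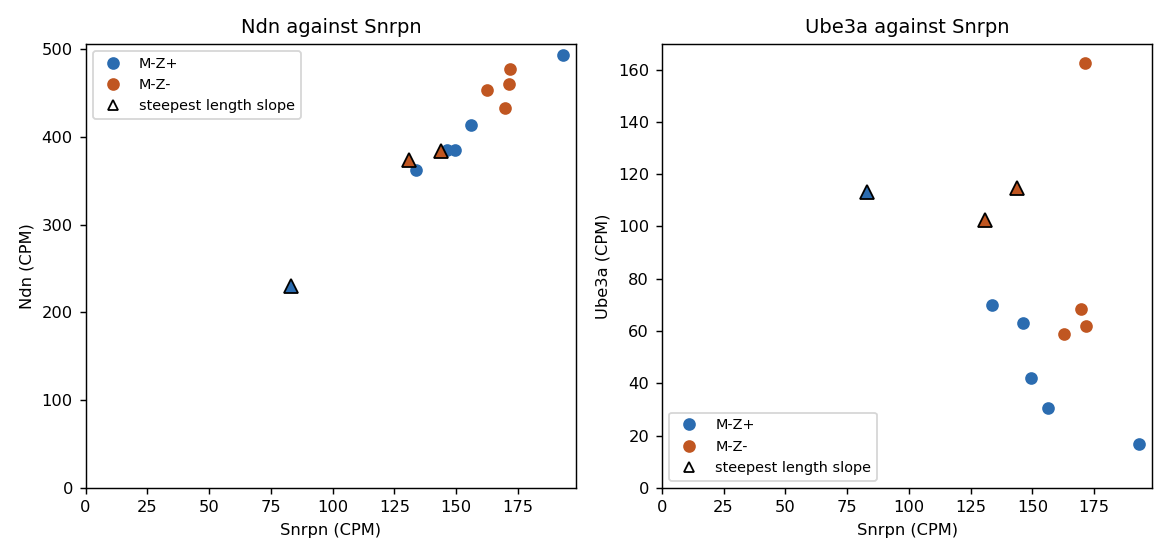
Levels of *Ndn* (left) and *Ube3a* (right) against *Snrpn*, in CPM, with 1 point per embryo (blue, M-Z+; orange, M-Z-). Triangles mark the 3 libraries with the steepest length slope. *Ndn* follows *Snrpn* closely in both groups, and *Ube3a* is lowest in the M-Z+ embryo with the highest *Snrpn*.

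Outside the domain, the 5 genes whose deviations were most like those of *Snrpn* were *Mrpl57*, *Grcc10*, *Smdt1*, *Rpl31* and *Brms1*, with r of 0.97 to 0.98 over the 12 embryos. Their counted lengths were 1338 to 3276 bases, and that of *Snrpn* was 2935 bases. The 5 most like *Ube3a* were *Oxr1*, *Mtdh*, *Itga8*, *Slc30a4* and *Zfp558*, with r of 0.94 to 0.96, lengths of 4725 to 16132 bases, and 28569 bases for *Ube3a*. None of these 10 genes passed after adjustment between the genotypes, and the points share their library and its depth. The largest log2 fold change among them was that of *Mtdh*, 0.57 (standard error 0.20, edgeR adjusted p = 0.705).

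Within the stretch from *Atp10a* to *Peg12*, 2 other annotated genes passed the filter. *Gm38393*, which overlaps *Snrpn* and *Snurf*, had 23.7, 35.1 and 48.1 CPM in M-Z+ and 31.4, 43.8 and 66.2 CPM in M-Z- embryos. Its log2 fold change was 0.46 (95% interval 0.02 to 0.90, edgeR adjusted p = 0.744), and its 2 highest embryos were M-Z- replicates 5 and 6. How reads in the overlap were counted is not given in the sources used here, so they cannot be assigned to one of these genes. The values given for *Snrpn* carry the same limit. *Gm7367* lies between *Snrpn* and *Ndn* and was the only tested gene of the stretch with a negative value, −0.29 (95% interval −0.53 to −0.05, edgeR adjusted p = 0.744). It had 24.0, 29.8 and 37.5 CPM in M-Z+ and 23.7, 24.7 and 26.8 CPM in M-Z- embryos, and no M-Z- embryo reached the M-Z+ median.

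Of 18 tested genes that flank the domain and are not imprinted, none was called. The nicotinic receptor subunit gene *Chrna7* and the tight junction gene *Tjp1* were higher at an unadjusted p below 0.05, with log2 fold changes of 0.81 and 0.30 (edgeR adjusted p = 0.705 and 0.744), and none was lower. Their median of 0.10 compares with 0.31 for the members. At 0.49 and −0.33, *Gabrg3*, a GABA receptor subunit gene, and *Trpm1*, an ion channel gene, did not pass.

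Genes whose products work with or resemble those of the domain were also listed. Of the 7 genes of the Sm core, the ring of spliceosomal proteins to which SmN is related, all had a log2 fold change below 0, from −0.23 to −0.09, and none passed the unadjusted p. The median was −0.12 and became 0.03 with the length slope. In the 6 tested MAGE family genes the values lay between −0.03 and 0.03. Of 11 tested partners of MAGEL2, none passed the unadjusted p, with the largest value, 0.40, in *Vps26a*, a retromer subunit (95% interval −0.13 to 0.93). Among 9 makorin relatives, FRAT relatives and WNT pathway partners, only *Frat2* passed the unadjusted p, with a log2 fold change of −0.26 (edgeR adjusted p = 0.744). None of 8 partners of UBE3A passed it, and the highest was *Herc2*, at 0.30 (95% interval −0.13 to 0.73). *Herc2* and the MAGE family gene *Ndnl2* are also among the flanking genes given above.

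Several members are expressed mostly in neurons, so markers of the cell types of the embryo are given beside them. Of 12 neuron markers, 5 were lower in M-Z- embryos at an unadjusted p below 0.05 (*Nefl*, *Stmn2*, *Nefm*, *Tubb3* and *Ina*), none was higher, and 10 had a log2 fold change below 0. Of all tested genes, 3.26% were lower at that p. These 5 lay between −0.24 and −0.17, and the median of the 12 was −0.15, or −0.19 with the length slope. The largest of the 5 was *Nefl*, a neurofilament gene (edgeR adjusted p = 0.527). The summed level of the 12 was 2415 to 3026 CPM in M-Z+ and 2286 to 2651 CPM in M-Z- embryos, and no marker was at 0. The sign of most neuron markers was thus opposite to that of the 8 members. By sign alone, 0 of 8 hepatocyte, 1 of 8 erythroid and 2 of 8 neural progenitor markers were above 0. The median of the neural progenitor markers was −0.13, or −0.20 with the length slope. Of the 8 skeletal muscle markers, 4 were above 0. The part of these cell types in the members' values was not tested. Of 8 neural progenitor markers, *Fabp7* and *Hes5* were lower at the unadjusted p, at −0.27 and −0.39 (edgeR adjusted p = 0.685 and 0.744). None of the 8 hepatocyte, 8 erythroid or 8 skeletal muscle markers passed it. Their medians were −0.28, −0.15 and 0.03, and with the length slope they were −0.04, 0.02 and 0.07. In the fit with the slope, 3 skeletal muscle markers were higher at an unadjusted p below 0.05. In the same fit, 7 neuron markers and 1 neural progenitor marker were lower, and no hepatocyte or erythroid marker passed. The share of all tested genes at that p was not computed for this fit. These counts are therefore given without a background and are not read further.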

How the data were processed

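RNA-seq was performed with total RNA of 12 whole embryos, 6 M-Z+ and 6 M-Z-, grouped by the labels. The authors deposited raw gene counts of reads, together with FPKM values made from them with 1 length per gene. The deposited FPKM values served only to derive gene lengths for TPM. Positions follow GRCm38 (mm10). The submitters' processing notes name HISAT2 2.0.4, Trim Galore 0.4.1, Bismark 0.15.0 and Bowtie2 2.2.9 without roles. How reads were counted, by strand or not, and on which annotation is not given in the sources used here. Total counts per library ranged from 12005145 to 19216288. The 12 embryos with whole-genome bisulfite sequencing were not analysed here.

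Counts were tested with edgeR 4.0.16 in R 4.3.3 (TMM normalization, filterByExpr, glmQLFit and glmQLFTest, no covariate), and p was adjusted by the Benjamini-Hochberg method over all 16026 tested genes. CPM values were scaled by TMM. Mean CPM was compared by a two-sided exact permutation test over every division of the embryos into 2 groups of 6. Correlations used deviations of log2 CPM from the group means and 100000 permutations within groups. DESeq2 1.42.0, sva 3.50.0 with 2 surrogate variables, other scaling and filters, the replicate number as a block, the length slope and each embryo left out were alternatives. Fits without the 3 steepest libraries, and with the slope and 1 embryo left out, were added after the data were seen. Scripts for tests across genes were tested on simulated counts. SciPy 1.17.1, Biopython 1.88 and matplotlib 3.10.9 were used.

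The genes named were the members, other tested genes between *Atp10a* and *Peg12*, up to 4 genes of each list, and the 5 genes most like *Snrpn* or *Ube3a*. The members, the lists and the length slope were chosen with earlier results of these data known. Counts measure reads, in which PCR copies are not distinguished, and the spread between embryos may include litter and sex, which the labels do not give.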

Additional observations from a re-analysis of the deposited data

How the results depend on the processing

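No member of the domain was called changed in any setting, that is with edgeR, DESeq2, other scaling or filters, the replicate block, the length slope, 2 surrogate variables, or any embryo left out, and the 8 tested members stayed above 0 in all of these. The number of all called genes, 13, was 37 by DESeq2, 21 with the replicate block, 23 with the length slope, 24 with 2 surrogate variables and 247 at an unadjusted p with the fold change limit, and 1 flanking gene, *Chrna7*, was called in that last setting. Leaving out single embryos gave 11 to 15. The lowest fitted log2 fold change when 1 embryo was omitted was 0.067 for *Ndn* (M-Z+ replicate 6), 0.084 and 0.22 for *Magel2* and *Snhg14* (M-Z- replicate 5), and 0.54 for *Ube3a* (M-Z- replicate 1). The labels do not say whether the replicate numbers pair the embryos. The correlation of deviations between same-numbered embryos ranged from 0.02 to 0.64, and 5 of the 12 libraries were closest to their own number. Whether this is more than unpaired embryos would give was not tested. With the replicate block the log2 fold changes of the members ran from 0.18 for *Snrpn* to 0.90 for *Ube3a*. Their lowest edgeR adjusted p was then 0.316, for *Peg12*, against 0.589 in the fit without a covariate. With 2 surrogate variables they ran from 0.24 for *Atp10a* to 0.51 for *Ube3a*, with a lowest edgeR adjusted p of 0.295, for *Ndn*.

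With the length slope and 1 embryo left out, an alternative added after the data were seen, *Magel2* reversed to −0.0024 and −0.031 when M-Z+ replicate 1 or 6 was omitted. *Snhg14* reversed to −0.034 and −0.20 when M-Z+ replicate 3 or 6 was omitted, and to −0.0034 and −0.028 when M-Z- replicate 1 or 2 was omitted. The cause was not tested. With 1 embryo left out, the difference of mean CPM ranged from 2.62 to 24.6 for *Snrpn*, from 22.2 to 74.7 for *Ndn* (exact permutation p of 0.043 without M-Z+ replicate 4), from 25.4 to 50.4 for *Ube3a* (exact permutation p of 0.041 without M-Z+ replicate 6) and from 1.28 to 2.07 for *Atp10a* (exact permutation p from 0.013 to 0.069). Without M-Z+ replicates 4 and 6, the r with *Snrpn* was −0.67 for *Magel2*, −0.62 for *Snhg14* and −0.42 for *Ube3a*, and it reversed to −0.74 for *Mkrn3* and −0.51 for *Peg12*. Without the 3 steep libraries it reversed to 0.35 for *Magel2*, was −0.26 for *Snhg14* and was −0.73 for *Ube3a*. The 13 counts of *Snurf* over all libraries allow no comparison, and the cause of this low count was not tested.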
